A study of Sus scrofa with 32 samples.

Results

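Enteroendocrine cells are the hormone-secreting cells of the gut epithelium, and the genes described here encode their hormones and the proteins of their secretory granules. The 8 genes listed were GCG, CHGA, CHGB, NEUROD1, TPH1, SST, NTS and CCK. Of these, 7 were named among the 25880 genes of the expression matrices, and TPH1, the enzyme of the first step of serotonin synthesis in the gut, was not analysed here. Endocrine cells were defined by the granule genes, as barcodes with at least 3 unique molecular identifiers (UMIs, counted transcript molecules) of CHGA and CHGB together. That rule took 64 of the 51592 candidate barcodes, those with at least 500 UMIs, in 6 ileal libraries.

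CHGA and CHGB encode the chromogranins, acidic proteins packed with hormones into dense granules. NEUROD1 is a transcription factor of endocrine differentiation. GCG encodes proglucagon, which L cells process to glucagon-like peptides, NTS encodes neurotensin, CCK encodes cholecystokinin and SST encodes somatostatin, the inhibitory hormone of D cells. Enterochromaffin cells store serotonin and are rich in chromogranins. Endocrine cells are scattered singly among absorptive enterocytes and mucus-secreting goblet cells, and the distal ileum is known for L cells that make both proglucagon and PYY.

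The tissue came from the ileum of 2 mixed-breed pigs aged 7 weeks, pig 1 labelled female and pig 2 labelled male, with no treatment or genetic change in any group. Each pig gave 3 dissections, namely Peyer's patch regions (PP), regions that excluded the patches (non-PP) and an entire transverse section (whole ileum), so that each group had 2 libraries. Peripheral blood mononuclear cells (PBMC) of the same pigs gave 2 further libraries. The outer muscle layer was peeled off, epithelial and digested fractions were pooled, and the suspension was passed through a Percoll gradient and dead-cell removal to enrich live lymphocytes, so epithelial cells were not what the isolation was designed to recover, and shares of endocrine cells are shares of what was captured, not of the tissue. The study discarded barcodes with fewer than 550 genes and those past its limits on low UMIs and on mitochondrial UMIs. Barcodes that passed are called kept cells here, and the other candidates are called failing barcodes. With 2 libraries a group and 2 pigs in all, p-values measure the spread between these libraries and not between animals in general. Where dissections were compared without the pig as a block, that spread includes the difference between the 2 pigs.

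The libraries held 21134542 to 40111934 UMIs, with a median of 2577.5 to 3061 UMIs per kept ileal cell and of 804 to 952 per failing ileal barcode. EIF1AY, a Y-linked gene, had 532 to 1316 UMIs in the libraries of pig 2 and 0 to 2 in the other libraries labelled pig 1, but 937 in the library labelled whole ileum pig 1, which goes against its label. The tests of the 7 genes and of the shares of failing against kept barcodes were therefore also run without it. Of 64972 distinct candidate barcodes, 2623 occurred in 2 or more libraries, and pairs of libraries shared 68 to 134. One barcode met the endocrine rule in both PP libraries, with 167 CHGA and 49 CHGB UMIs of 7616 in PP pig 2 and with 3 and 2 of 1617 in PP pig 1, where it also held 10 CD3 UMIs and none of the epithelial genes.

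Most of the chromogranin and NEUROD1 transcripts lay in the endocrine cells, and the hormone transcripts lay there in smaller shares. The positions given are those of RefSeq on Sscrofa11.1, the build to which the authors aligned their reads. CHGA (chr7:114345542-114357799) had 5344 UMIs in all barcodes of the ileal libraries, of which 83.0% were in endocrine cells. CHGB (chr17:14747282-14761995) had 1649 UMIs with 85.6% in endocrine cells. Both of these genes chose the cells, so their shares are a description. NEUROD1 (chr15:87175629-87179953) was not used in the choice and had 77.4% of its 195 UMIs in the same 64 cells. In the library labelled whole ileum pig 1 the endocrine shares were lower, at 66.1% of 189 CHGA UMIs, 9 of 20 CHGB UMIs and 4 of 8 NEUROD1 UMIs.

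GCG, SST and NTS had more UMIs than the granule genes, and CCK had fewer. GCG (chr15:68800557-68810268) had 41108 UMIs, of which 60.1% were in endocrine cells and 21.9% in barcodes under 100 UMIs, which hold mostly free RNA. SST (chr13:125337560-125338742) had 31068 UMIs with 50.9% in endocrine cells and 37.2% under 100 UMIs. NTS (chr5:96261299-96272947) had 20046 UMIs, 50.01% in endocrine cells and 23.3% under 100 UMIs. CCK (chr13:25940674-25945879) was scarce, with 183 UMIs and 39.3% in endocrine cells. The share under 100 UMIs was 8.13% for CHGB, 11.2% for CHGA and 14.4% for NEUROD1, lower than for each of the 4 hormones.

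**Figure D1:**
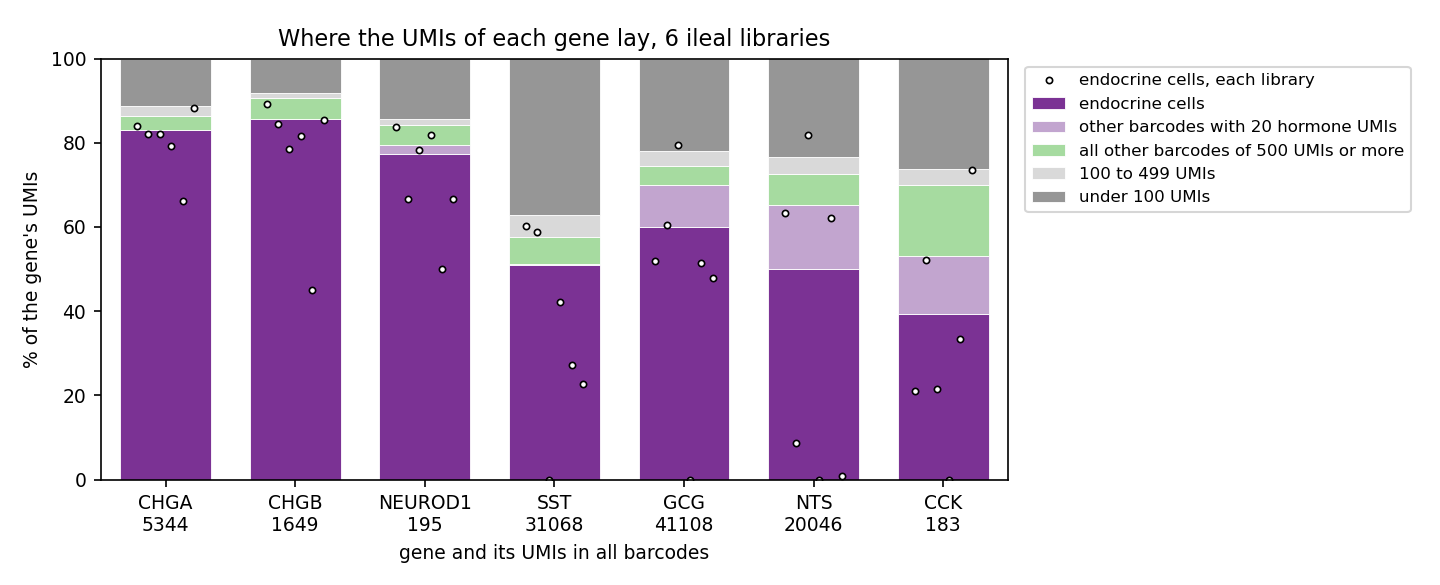
Percentage of the UMIs of each gene (y axis) that lay in each class of barcodes of the 6 ileal libraries together (stacked bars, the gene's UMIs under its name), with the endocrine percentage of each library as points. CHGA, CHGB and NEUROD1 have 77.4% to 85.6% in endocrine cells, while SST has 37.2% in barcodes under 100 UMIs and its points spread from 0 to 60.2%.

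Single UMIs of the hormones were also found in lymphocytes. In non-PP pig 1, SST had a UMI in 11.6% of 1374 other epithelial barcodes at a median of 1747.5 UMIs and in 8.45% of 2673 T cell barcodes at a median of 1976 UMIs, hormone-rich barcodes excluded. After thinning every barcode to 500 UMIs these shares were 3.20% and 2.73%. In non-PP pig 2, GCG had a UMI in 10.8% of other epithelial and 9.72% of T cell barcodes, and both were 2.55% after thinning. In PP pig 2, which had no endocrine cell with GCG, the T cell share for GCG was 0.595%. Shares at the level of T cells were read as background, so a single hormone UMI was not taken as expression, and no other class was compared for single UMIs. For CHGA the T cell shares were 0 to 0.636%, and the 0 was of 2691 barcodes in PP pig 2.

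The 64 endocrine cells were 24 in non-PP pig 1, 9 in non-PP pig 2, 15 in PP pig 1, 3 in PP pig 2, 4 in the library labelled whole ileum pig 1 and 9 in whole ileum pig 2. The PBMC libraries had none. All 64 had CHGA and 40 had CHGB, and the sum of both ran from 3 to 422 UMIs with a median of 26.5. The threshold lay in a sparse range: 258 barcodes had 1 UMI of CHGA and CHGB and 4 had 2, just outside, while 2 had 3 and 5 had 4, just inside, and 44 had more than 10. Of the 64, 58 also passed the epithelial gate, at least 3 UMIs of epithelial genes such as EPCAM and KRT8 and more of these than of leukocyte genes. The 6 outside it had 3 to 8 UMIs of CHGA and CHGB, and 4 of them had 12 to 45 leukocyte UMIs against 0 to 20 epithelial ones. One of these 6 was the only endocrine cell with a doublet score above 0.25.

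The endocrine cells fell into cells with at least 1 of the 4 hormones at 20 UMIs or more and cells with none at that level, and other endocrine genes were found at different frequencies in these sets. Cells were described by whether a hormone reached 20 UMIs, a level chosen after the values had been seen: 14 cells had GCG, 12 had SST, 3 had NTS without GCG and 35 had none. The highest values below that level were 4 UMIs for GCG, 0 for SST, 10 for NTS and 12 for CCK, and the lowest above it were 63, 116, 35 and 24. No cell had SST together with GCG or NTS at that level. NTS overlapped GCG in 3 cells and CCK overlapped GCG in both cells in which it reached 20. The cells outside the epithelial gate were left in these sets. Those with GCG had 259 and 1101 GCG UMIs, with 44 and 45 leukocyte and 4 and 20 epithelial UMIs. The others outside the gate were in the set with none. These sets come from the same cells and genes, so what follows is a description with no test.

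The SST cells had a median of 746 SST UMIs, with a range of 116 to 3581. They took CHGA at a median of 20.5 UMIs in 12 of 12 cells but CHGB in 4 and NEUROD1 in 1. HHEX, a homeobox factor known for maintaining somatostatin cells, was found in 7 of 12 SST cells, in 2 of 14 GCG cells and in no other endocrine cell. ISL1, a LIM-homeobox factor, was found in 9 of 12. SCG5, a chaperone of a prohormone convertase, and CPE, a carboxypeptidase that trims prohormones, were each found in 11. SST cells occurred in 5 of 6 libraries, 7 of them in non-PP pig 1.

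The GCG cells carried GCG at 63 to 4803 UMIs with a median of 1545, and all 14 also had PYY, the satiety peptide of L cells, at 74 to 1453 UMIs. They had less CHGA than the other large sets, with a median of 8 UMIs, and 2 of 14 had CHGB. ETV1, an ETS-family factor, SCG2, a secretogranin, and CPE were found in 14 of 14. NEUROD1 was found in 9, with up to 17 UMIs in 1 cell. The 3 GCG cells with NTS had 35, 328 and 5649 NTS UMIs, and the last of these also held 941 GCG, 926 PYY and 12 CCK UMIs. MLN, encoding motilin, was found in 3 GCG cells and 2 SST cells.

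The 3 cells with NTS but under 20 GCG UMIs had 213, 826 and 2951 NTS UMIs, and PYY at 18, 3 and 77. All 3 had NEUROD1, at 1 or 2 UMIs. Genes at 0 in all 3 included ETV1, SCGN, MLN, CCK, SST, ISL1, PAX6, HHEX, KRT7, LMX1A, RFX6, SCG3, SCG5 and SSTR5. A limit of 3 UMIs over these cells, as a share of their UMIs, lay below the GCG-cell level for ETV1, SCGN, MLN and CCK. For the others named the limit lay above that level, so their 0 cannot show a difference from GCG cells. Nor can the 0 of MLN and CCK in 3 cells, as they were found in only 3 and 6 of 14 GCG cells. ETV1 and SCGN were found in 14 and 11 of 14. Of the 3 NTS cells, 2 were failing barcodes.

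The 35 cells in which none of the 4 hormones reached 20 UMIs held most of the chromogranins. Their median was 107 CHGA UMIs and 23 CHGB UMIs, with highest values of 401 and 262. LMX1A, a LIM-homeobox factor of serotonin cells, was found in 21 of 35, in 1 GCG cell and in no other endocrine cell. PCSK1, a prohormone convertase, was found in 30, SCG2 in 29 and DDC, the decarboxylase that completes serotonin synthesis, in 30. The monoamine transporters SLC18A1 and SLC18A2 and the transcription factor FEV had no UMI in any endocrine cell, and TPH1 was not analysed. KRT7, a keratin, was found in 27 and SNAP25, a membrane-fusion protein of exocytosis, in 21, against 3 and 4 of 14 GCG cells and 1 and 0 of 12 SST cells. SCGN, a calcium sensor, was found in 1 of 35, against 11 of 14 GCG cells and 7 of 12 SST cells. PYY was found in 2 of 35, with up to 34 UMIs in 1 cell. The 7 genes together took a median of 3.61% of the UMIs of such a cell, against 24.8% for GCG cells and 32.5% for SST cells, and up to 58.2% in 1 NTS cell. Depth differed between the sets. Its median was 8837 UMIs in GCG cells, 4842 in cells with none of the 4 hormones at 20 UMIs and 2578.5 in SST cells. The part of depth in the detection counts was not tested.

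**Figure D2:**
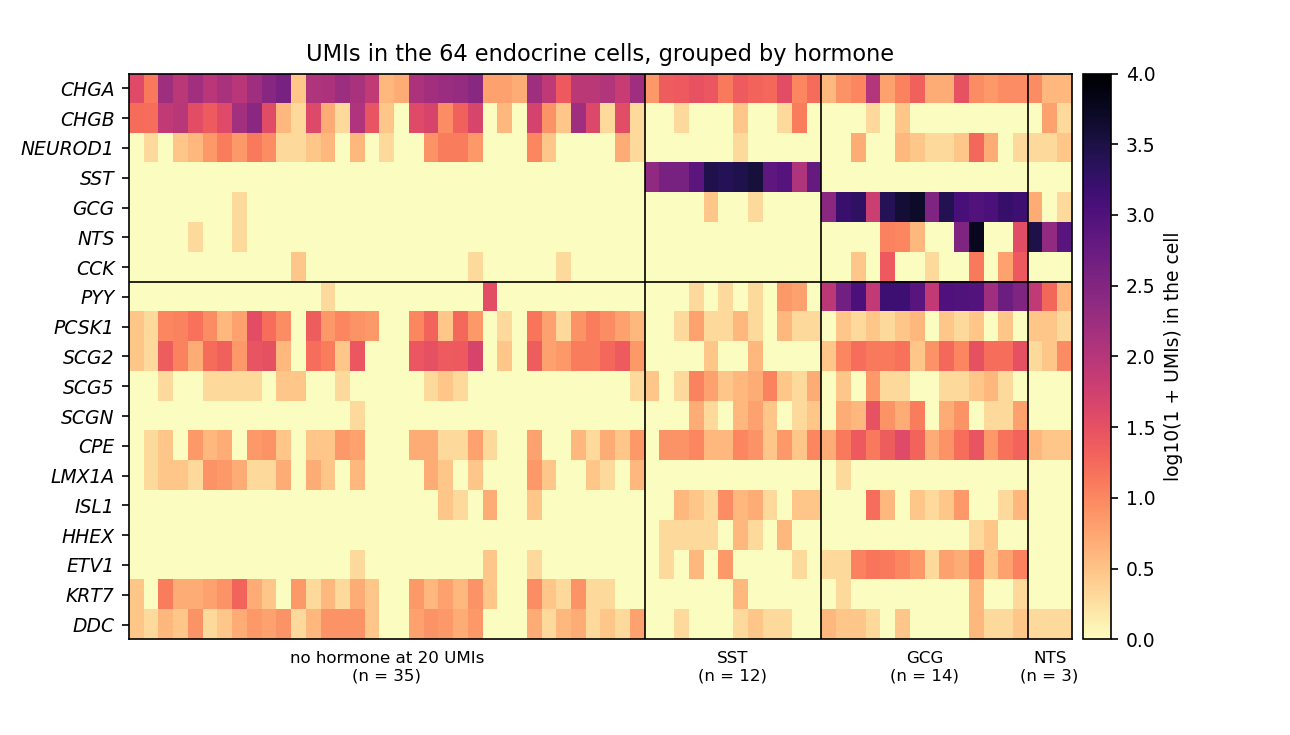
UMIs of 19 endocrine genes (rows) in the 64 endocrine cells (columns) on a log10(1 + UMIs) color scale, cells grouped by the hormone that reached 20 UMIs. SST stands in a block of 12 cells and GCG with PYY in one of 14, and NTS reached 20 UMIs in the last 3 cells and in 3 of the GCG cells. CHGB, LMX1A and KRT7 are mostly in the 35 cells with none of GCG, SST, NTS and CCK at 20 UMIs.

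Outside the chromogranin rule, 16 barcodes had at least 20 UMIs of a hormone, of which 9 passed the epithelial gate. Of the 16, 8 had GCG, 7 had NTS, 1 had SST and 1 had CCK, and 1 barcode of whole ileum pig 2 had both GCG (784 UMIs) and NTS (2286 UMIs). Of these barcodes, 11 were failing, 1 of them with 63.2% mitochondrial UMIs, and 1 of the 5 kept ones had 4 leukocyte and 0 epithelial UMIs. CHGA and CHGB together had 0 UMIs in 10 of them, 1 in 3 and 2 in 3. These barcodes held 15.2% of all NTS UMIs and 9.97% of all GCG UMIs, against 0.377% of SST UMIs. In whole ileum pig 2 the endocrine cells held 0.938% of the NTS UMIs and the hormone-rich barcodes outside the rule held 61.3%.

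Endocrine cells were compared with the 2580 other epithelial barcodes of the same libraries to describe which genes accompanied the chromogranins. The test was edgeR's quasi-likelihood test on UMIs summed per library and class, with the library as a block and Benjamini-Hochberg adjustment over 3815 genes. Of these, 26.8% passed an adjusted p of 0.05, 364 higher and 657 lower in endocrine cells, and 9.54% were called higher. Endocrine cells were deeper than other epithelial barcodes, with medians of 5103 and 1903.5 UMIs, 1855 and 603 genes and 3.12% and 40.7% mitochondrial UMIs, and the part of cell quality in the differences was not tested.

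Of the 7 genes, 4 passed the filter on low counts. A gene that passes through the endocrine sums alone had to differ, as NEUROD1 with 151 UMIs in endocrine cells and 4 in other epithelial barcodes, so the values are read for their size and the number that passed is not counted as support. SST exceeded the other epithelial barcodes by 11.45 ± 0.59 (log2 with its SE; adjusted p = 4.88e-56, edgeR), at 22674 to 90948 UMIs per 1000000 endocrine UMIs in 5 libraries and at 0 in PP pig 1. In non-PP pig 2, PP pig 2 and the library labelled whole ileum pig 1, that SST lay in 1 endocrine cell each. The GCG of the endocrine cells of whole ileum pig 2 also lay in 1 cell. NEUROD1 was higher by 9.37 ± 0.47 (adjusted p = 3.74e-58, edgeR) in 6 of 6 libraries. NTS was higher by 7.96 ± 0.69 (adjusted p = 1.44e-24, edgeR) in 4 of 6 libraries, and GCG was higher by 7.49 ± 0.56 (adjusted p = 8.15e-32, edgeR) in 5 of 6. Single cells held most of the endocrine NTS. They held 2951 of 2953 UMIs in non-PP pig 1, 213 of 235 in non-PP pig 2 and 5649 of 5977 in PP pig 1. All 826 in the library labelled whole ileum pig 1 and all 35 in whole ileum pig 2 lay in 1 cell each. In the library labelled whole ileum pig 1, 1 endocrine cell also held 1766 of 1767 GCG UMIs. CHGA and CHGB, which chose the cells, differed by 12.557 and 11.996 on the same scale, given without a test, and CCK was under the filter on low counts. Without the library labelled whole ileum pig 1 the 4 values were 11.31, 9.33, 6.89 and 7.82. The hormone values for other epithelial barcodes include the hormone-rich barcodes described above.

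Of 24 granule and prohormone-processing genes listed, 22 were named in the matrices and 8 passed the filter on low counts. The 8 were called higher, but the filter favors genes that are high in endocrine cells, so their number does not describe the list, and the 14 others measured were not tested. PCSK1 was higher by 10.30 ± 0.43, SNAP25 by 8.78 ± 0.49, SCG2 by 8.27 ± 0.40, CPE by 7.51 ± 0.36 and SCG3, another secretogranin, by 7.32 ± 0.47 (SE; log2). SCGN, SCG5 and RAB26, a small GTPase of secretory granules, were higher by 7.14, 4.89 and 2.87. SCG5 also had a UMI in 15.3% to 34.0% of kept cells other than endocrine cells in the 8 libraries.

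Of 17 transcription factors of the endocrine lineage, 5 passed the same filter, and the same limit holds for their number. LMX1A, with 61 UMIs in endocrine cells and 1 in other epithelial barcodes, was higher by 9.47 ± 0.55, ISL1 by 8.09 ± 0.48, RFX6, a factor of endocrine progenitors, by 7.67 ± 0.51 and ETV1 by 4.55 ± 0.33 (SE; log2). SOX4, which also marks early progenitors, was lower by -1.56 ± 0.52 (adjusted p = 0.0152, edgeR). INSM1, FEV and MNX1 had no UMI in the 64 cells. Of the amine genes, DDC was higher by 4.22 ± 0.30 and GCH1, which makes the cofactor of tryptophan hydroxylase, by 1.69 ± 0.36, while the monoamine transporters SLC18A1 and SLC18A2 had no UMI in endocrine cells. Of 26 nutrient and sensory receptors, 22 were named in the matrices and 1 was tested, SSTR5, a somatostatin receptor, which was higher by 6.15 ± 0.46 with 41 UMIs in endocrine cells and 13 in other epithelial barcodes. Of 15 other peptide hormones, 2 were tested. PYY was higher by 7.82 ± 0.52 and ADM, encoding adrenomedullin, was lower by -2.95 ± 0.38.

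The other genes with the highest fold changes were KRT7 (10.51 ± 0.53), CELF3, an RNA-binding protein (8.39 ± 0.55), PRSS35, a serine protease family member (7.64 ± 0.65), and DIRAS3, a Ras-family GTPase (7.62 ± 0.44). KRT7 had 129 UMIs in endocrine cells and 1 in the other epithelial barcodes, and it was higher in 6 of 6 libraries. The rule that named these genes asks for 1 sign in the 4 libraries with at least 5 endocrine cells, so that number of libraries is not counted as support. The genes with the lowest fold changes had no UMI in endocrine cells: against a limit of 3 UMIs over all endocrine cells, ITLN2, an intelectin, was at least 134-fold lower, PDZK1, a scaffold of brush-border transporters, 40.9-fold, C3orf85 32.7-fold, PIGR, the receptor that carries IgA across the epithelium, 31.2-fold and EMP1 24.5-fold.

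Enterocyte and goblet genes were mostly lower in endocrine cells, against 17.2% called lower among all 3815 genes tested. Of 10 tested enterocyte genes, 9 were lower, among them FABP6, the ileal bile acid binding protein, by -7.20 ± 0.48 and SI, sucrase-isomaltase, by -5.75 ± 0.54. APOA1, encoding an apolipoprotein, was the exception and was higher by 3.41 ± 0.30 in 6 of 6 libraries, with 774 UMIs in endocrine cells. All 7 tested goblet genes were lower, including CLCA1 by -9.07 ± 0.67, MUC2, the gel-forming mucin, by -6.65 ± 0.57 and SPINK4 by -1.85 ± 0.38. OLFM4, a crypt base marker, was lower by -6.03 ± 0.53 and STMN1, a tubulin-binding protein of dividing cells, was higher by 1.10 ± 0.30. CD247, a T cell receptor chain, was higher by 1.54 ± 0.34, and 37 of the 64 endocrine cells had a UMI of the leukocyte genes. The summed leukocyte genes were at 137 to 1052 UMIs per 1000000 in the endocrine cells of the 6 libraries, with CD79A at 0, and the part of leukocyte RNA in the CD247 result was not tested. GUCA2A, KRT20, VIL1 and JCHAIN were also called lower, by -1.38, -1.09, -2.37 and -1.86.

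**Figure D3:**
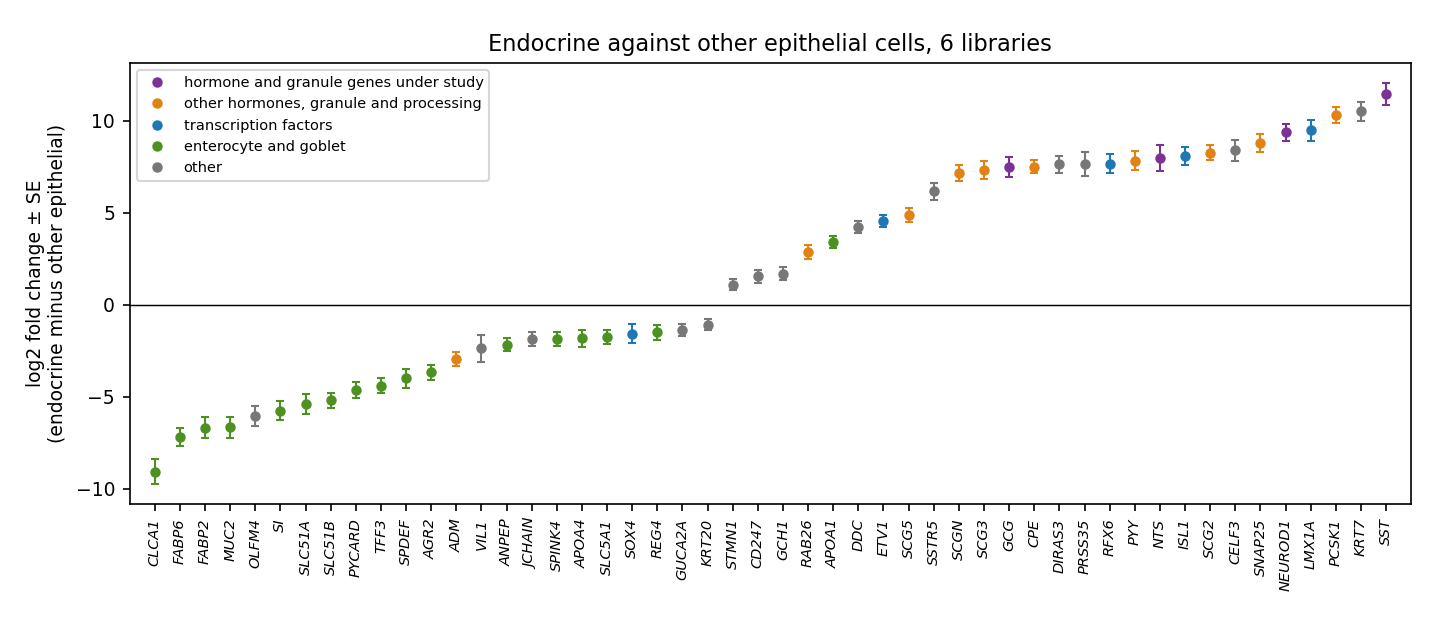
Log2 fold change between endocrine and other epithelial cells (y axis, points with SE bars; 6 libraries) for each gene named by the rule, with the 5 genes at 0 UMIs in endocrine cells left off. CHGA and CHGB, which chose the cells, are also left off. The other hormone, granule and endocrine transcription factor genes lie from 2.87 (RAB26) to 11.45 (SST), apart from SOX4 and ADM below 0, and of the enterocyte and goblet genes APOA1 alone lies above 0.

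Endocrine cells passed the study's quality thresholds more often than other epithelial barcodes. Of the 64, 56 were kept cells, or 87.5% (95% Clopper-Pearson interval 76.8% to 94.4%), against 610 of 2580 other epithelial barcodes, or 23.6% (22.0% to 25.3%). The endocrine share kept was above the other epithelial share in 6 of 6 libraries, at 66.7% to 100% against 17.1% to 50.3%, with 3 to 24 endocrine cells a library. The library labelled whole ileum pig 1 had 3 of 4 endocrine cells kept. T cell barcodes were kept at 77.1% and B cell barcodes at 91.6%. The intervals cover counting error only. The endocrine rule needs 3 UMIs of 2 genes and so favors deep barcodes, and the thresholds use depth, so the kept share is not independent of the rule.

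**Figure D4:**
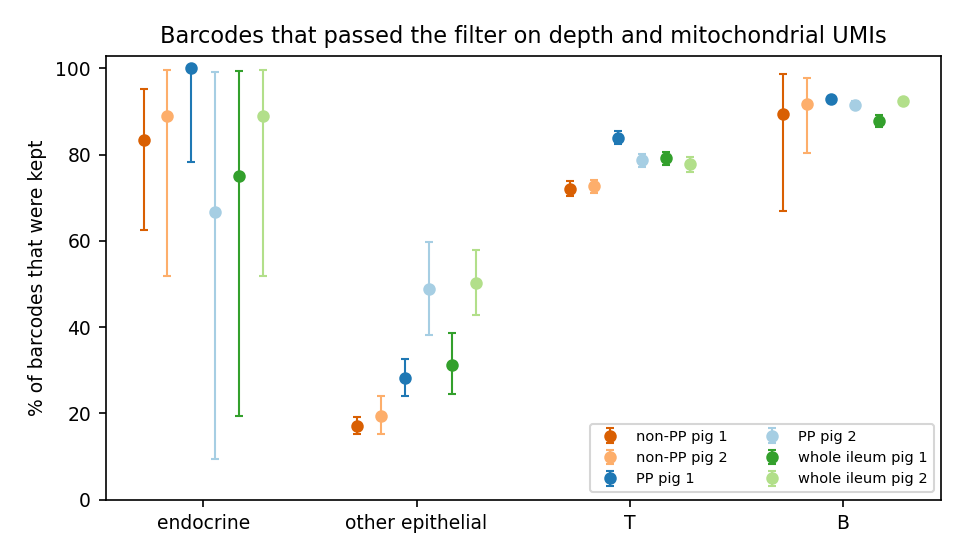
Percentage of barcodes that passed the quality thresholds (y axis, with 95% Clopper-Pearson intervals) for endocrine, other epithelial, T and B cell barcodes in each of the 6 ileal libraries. Endocrine points lie between 66.7% and 100% with wide intervals, and other epithelial points between 17.1% and 50.3%.

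As a share of all candidates, endocrine cells were not shown to differ between kept and failing barcodes. They were 0.512%, 0.212%, 0.204%, 0.0291%, 0.0518% and 0.104% of kept cells in non-PP pigs 1 and 2, PP pigs 1 and 2 and whole ileum pigs 1 and 2. Among failing barcodes they were 0.0991%, 0.0334%, 0, 0.0491%, 0.0395% and 0.0474%, and the 0 of 2496 in PP pig 1 allows a share of up to 0.120%. The share was lower in failing barcodes in 5 of 6 libraries, by -0.141 ± 0.161 percentage points (SD, n = 6; exact two-sided sign-flip permutation test p = 0.0938, adjusted over 2 share comparisons 0.188; the smallest p possible is 0.0313). After thinning every barcode to 500 UMIs the difference was -0.0881 percentage points with 6 of 6 libraries lower (exact p = 0.0313). Among epithelial and endocrine barcodes only, the mean shares were 0.79998% of failing and 7.97% of kept ones, again lower in 6 of 6 (exact p = 0.0313). Without the library labelled whole ileum pig 1 the first difference was -0.166 percentage points (exact p = 0.125).

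The next comparison asked in which of both sets of barcodes the endocrine transcripts lay, since the study removed the failing ones on quality. In sums over barcodes, fewer cells of a type and less RNA per cell cannot be told apart. The edgeR quasi-likelihood test had the library as a block and ran over 10690 genes, of which 43.6% were called, 22.3% higher and 21.3% lower in failing barcodes. Of the 7 genes, 5 passed the filter on low counts, 3 were called lower and none was called higher.

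CHGA was at 137, 49.3, 36.1, 7.22, 6.20 and 21.1 UMIs per 1000000 in kept cells of non-PP pigs 1 and 2, PP pigs 1 and 2 and whole ileum pigs 1 and 2, and at 19.5, 5.02, 4.15, 2.41, 1.48 and 5.35 in failing barcodes. It was lower in failing barcodes of every library, by -2.44 ± 0.17 (SE; log2, adjusted p = 1.38e-06, edgeR). CHGB was at 54.3, 13.3, 6.75, 2.10, 0.726 and 9.26 UMIs per 1000000 in kept cells and at 7.54, 2.82, 1.28, 0, 0.741 and 5.79 in failing barcodes. It was lower by -1.85 ± 0.30 (adjusted p = 5.88e-04, edgeR), with the library labelled whole ileum pig 1 level at 15 and 2 UMIs. GCG was at 314, 1076, 207, 1.87, 136 and 87.5 UMIs per 1000000 in kept cells and at 90.1, 254, 22.6, 4.82, 8.16 and 10.7 in failing barcodes. It was lower by -2.26 ± 0.38 (adjusted p = 7.96e-04, edgeR) in 5 of 6 libraries, PP pig 2 being the exception with 50 and 10 UMIs. These 3 calls held without each library in turn, the one labelled whole ileum pig 1 included. None of the 3 was called without the library block, with adjusted p from 0.0869 to 0.309 (edgeR). In some libraries 1 kept cell held most of a sum. In PP pig 2, 1 held 167 of 193 CHGA and 49 of 56 CHGB UMIs. In the library labelled whole ileum pig 1, single cells held 81 of 128 CHGA and 1766 of 2802 GCG UMIs. For CHGB the highest held 111 of 164 in non-PP pig 2 and 161 of 251 in whole ileum pig 2. In non-PP pig 1 the highest CHGA value was 401 of 1836.

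The other hormones showed no call. SST was at 723, 302, 1.36, 31.6, 51.4 and 33.2 UMIs per 1000000 in kept cells and at 201, 38.9, 4.46, 18.3, 34.8 and 85.1 in failing barcodes, a difference of -0.63 ± 0.48 (adjusted p = 0.308, edgeR). NTS was at 229, 17.7, 205, 2.77, 5.04 and 94.96 UMIs per 1000000 in kept cells and at 104, 163, 44.3, 3.86, 314 and 23.6 in failing barcodes, a difference of 0.59 ± 1.12 (adjusted p = 0.702, edgeR), which was -0.42 without the library labelled whole ileum pig 1 (adjusted p = 0.705, edgeR). Single cells set some of these levels. In the library labelled whole ileum pig 1, 1 failing endocrine cell held 826 of the 848 failing NTS UMIs, and in whole ileum pig 2, 1 kept barcode outside the rule held 2286 of the 2575 kept NTS UMIs. NEUROD1 and CCK, under the filter, had 0 to 3 and 0 to 2 UMIs in the failing barcodes of a library and 2 to 64 and 4 to 49 in kept cells.

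With the 64 cells taken out, an alternative chosen after the data had been seen, SST differed by 1.96, GCG by 0.62 and CHGA by 1.69. These values are given without a test. The cells removed were chosen by CHGA and CHGB, 56 of them were kept cells, and their SST and GCG went with them. Hormone-rich barcodes outside the rule stayed in. Single kept ones held 1587 of 1995 remaining kept GCG UMIs in non-PP pig 2 and 784 of 887 in whole ileum pig 2. In the library labelled whole ileum pig 1, 1 held 939 of 1036. Failing ones held up to 275 GCG UMIs and, in non-PP pig 1, 117 SST UMIs. The SST that remained was at most 1 to 6 UMIs in a kept cell of each library. In the same comparison with the endocrine cells left in, 13 of 13 tested enterocyte genes and 11 of 11 tested epithelial genes were called higher in failing barcodes, with median log2 fold changes of 3.32 and 1.63. Other genes of the endocrine lists went in both directions. Called higher were 1 of 4 tested other hormone, 1 of 10 granule, 2 of 5 transcription factor and 3 of 5 amine genes. Called lower were 1, 2, 2 and 1 of them, against 22.3% higher and 21.3% lower among all genes tested. PCSK1 was lower by -2.05 ± 0.42, CPE by -0.73 ± 0.19, PAX6 by -1.56 ± 0.38 and PENK, encoding proenkephalin, by -3.76 ± 0.47. ETV1 was higher by 1.22 ± 0.27 and SOX4 by 2.13 ± 0.22, although SOX4 was lower in endocrine cells than in other epithelial barcodes. The sums cover all kept or all failing barcodes, and which cells carried these genes was not tested. PYY differed by -0.65 ± 0.76 (adjusted p = 0.520, edgeR).

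**Figure D5:**
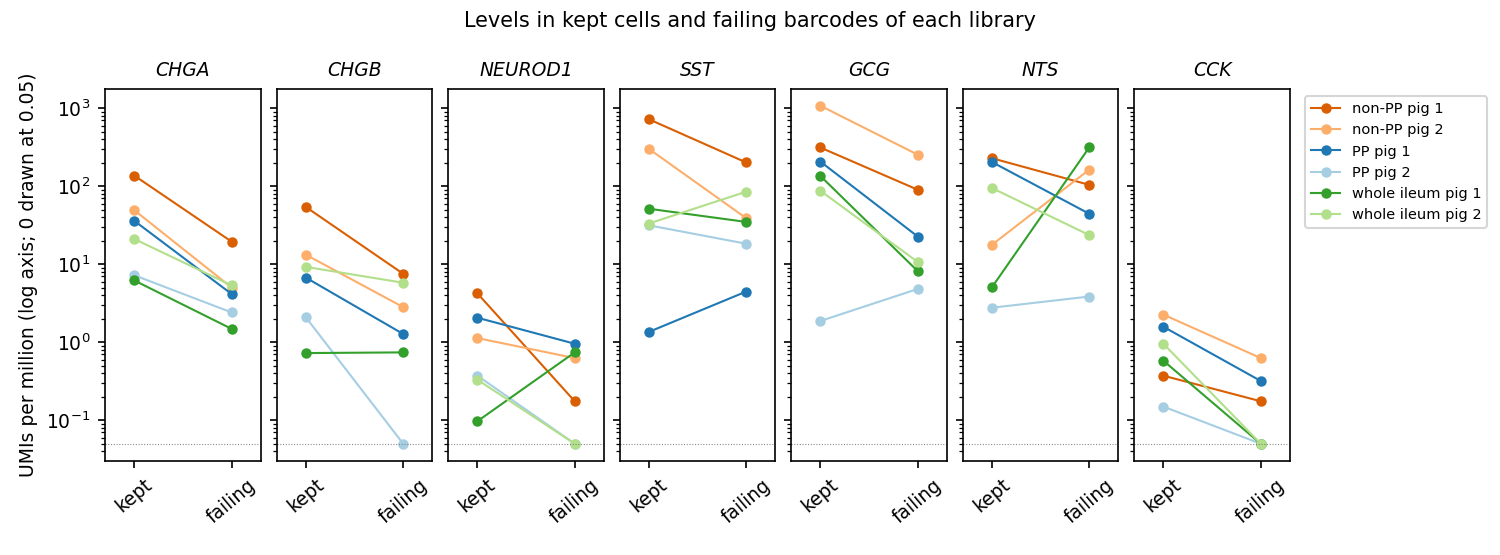
UMIs per 1000000 of each gene (log y axis, 0 drawn at 0.05) in kept cells and failing barcodes of each ileal library, lines joining the 2 values of a library. CHGA falls in every library from kept to failing, while NTS rises from 5.04 to 314 in the library labelled whole ileum pig 1.

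The dissections were compared because the study set PP against non-PP ileum, in which the epithelium and the lymphoid tissue differ in amount. In kept cells, endocrine cells were 0.362% of non-PP and 0.117% of PP libraries on average, a difference of 0.245 percentage points (exact two-sided permutation test p = 0.333, which is the smallest p that 2 against 2 libraries allow). As a share of epithelial and endocrine kept cells the means were 9.72% and 7.53% (exact p = 0.667). No difference in share was shown.

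In kept cells, all 7 genes had a positive log2 fold change for non-PP against PP and none was called, where 18.9% of 12365 genes were called, 7.7% higher and 11.2% lower (edgeR, whole ileum in the fit, 2 libraries a group). SST had the largest difference, at 302 and 723 UMIs per 1000000 in non-PP and 1.36 and 31.6 in PP, or 4.87 ± 1.41 (SE; log2, adjusted p = 0.0611, edgeR). Single cells set 2 of these SST levels. In non-PP pig 2, 1 kept cell held 3581 of 3733 SST UMIs, and in PP pig 2, 1 held 737 of 843. SST passed with DESeq2 (adjusted p = 0.00741) and without the filter on low counts (adjusted p = 0.0232, edgeR). It did not with the pig number as a block (adjusted p = 0.0799, edgeR) or without the library labelled whole ileum pig 1 (4.81, adjusted p = 0.111, edgeR). Without endocrine cells it also passed (3.02, adjusted p = 0.0338, edgeR). The SST then left was at most 5 and 2 UMIs in a kept cell of the non-PP libraries and 2 and 1 in PP. Such low counts were read as background above, so that call is not counted as support. Leaving out PP pig 2 gave 8.57 for SST (adjusted p = 0.0315) and leaving out PP pig 1 gave 8.34 for GCG (adjusted p = 0.0364, edgeR), each time with the PP library that had endocrine cells of that hormone removed. CHGB differed by 2.92 ± 1.22, GCG by 2.70 ± 1.67, CHGA by 2.11 ± 0.93, NEUROD1 by 1.13 ± 0.97, CCK by 0.53 ± 1.12 and NTS by 0.29 ± 2.00. The non-PP libraries lay wholly above the PP libraries for SST, GCG, CHGA and CHGB, as they did for 36.0% of all genes tested (29.7% lay wholly below), and the libraries overlapped for NEUROD1, NTS and CCK. Whole ileum levels were 33.2 and 51.4 UMIs per 1000000 for SST and 87.5 and 136 for GCG. Of the granule genes, 4 of 18 tested were called higher in non-PP, PCSK1N (2.56 ± 0.38), RAB3B (2.20 ± 0.55), RAB3C (2.84 ± 0.60) and SCGN (3.46 ± 0.72). Of 8 tested endocrine transcription factors none was called higher and 2 were called lower, HHEX (-3.44 ± 0.26) and PAX6 (-2.80 ± 0.51). The sums cover all kept cells, and the 7 tested B and antibody-secreting genes had a median log2 fold change of -5.13 in the same fit. Which cells carried HHEX and PAX6 was not tested. PCSK1N also had UMIs in 0.309% to 4.17% of kept cells other than endocrine cells.

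In failing barcodes, GCG was called and the 4 other tested genes were not. It was at 90.1 and 254 UMIs per 1000000 in non-PP and 22.6 and 4.82 in PP, a difference of 3.80 ± 0.76 (adjusted p = 0.0471, edgeR), where 5.46% of 9631 genes were called, 0.737% higher and 4.72% lower. With the pig number as a block it was 3.71 (adjusted p = 0.0198, edgeR). The call was lost without the library labelled whole ileum pig 1 (3.84, adjusted p = 0.136), without whole ileum pig 2 (3.80, adjusted p = 0.144), without PP pig 2 (3.11, adjusted p = 0.122) and without non-PP pig 2 (2.99, adjusted p = 0.0838, all edgeR), and also with failing barcodes of at least 1000 UMIs only (4.55, adjusted p = 0.129). Without PP pig 1 it was 5.36 (adjusted p = 0.0456). Taking out the endocrine cells left it at 3.80 (adjusted p = 0.0470), since no failing endocrine cell had more than 1 GCG UMI. Part of the failing GCG lay instead in hormone-rich barcodes outside the endocrine rule, with 31, 98 and 155 of 514 UMIs in non-PP pig 1 and 222 and 275 of 809 in non-PP pig 2, against 0 such GCG barcodes among the failing ones of PP. Other candidates that were not endocrine cells had at most 8 and 15 GCG UMIs each in non-PP and 2 and 1 in PP. In barcodes under 100 UMIs, which hold mostly free RNA, GCG was at 581 and 953 UMIs per 1000000 in non-PP and 226 and 92.8 in PP. The part of free RNA in the GCG call was not tested. SST differed by 3.78 ± 1.07 (adjusted p = 0.105), CHGB by 3.07 ± 1.27 (adjusted p = 0.209), NTS by 2.65 ± 1.36 (adjusted p = 0.282) and CHGA by 2.18 ± 0.86 (adjusted p = 0.194, all edgeR). SST was called with DESeq2 (adjusted p = 0.00102), and without the filter on low counts SST (adjusted p = 0.00101), CHGA (adjusted p = 0.0402) and NTS (adjusted p = 0.0491, edgeR) were called. For all 5 the non-PP libraries lay wholly above the PP libraries, as they did for 14.3% of all genes tested (39.1% lay wholly below). EPCAM, an epithelial adhesion protein, differed by 1.06 ± 0.71 (adjusted p = 0.393) in failing barcodes and by 1.51 ± 0.52 (adjusted p = 0.0894, edgeR) in kept cells. Of 11 tested epithelial genes, 0 were called higher in failing barcodes and 1 in kept cells, with median log2 fold changes of 1.37 and 1.70. The part of epithelial content in the GCG result was not tested.

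The difference between failing and kept barcodes was itself compared between non-PP and PP, and none of the 7 genes was called, where 0.102% of 11743 genes were, 0.0511% with a higher and 0.0511% with a lower difference in non-PP. The interaction was -1.97 ± 0.81 for SST (adjusted p = 0.310, edgeR) and 2.92 ± 2.41 for NTS (adjusted p = 0.653, edgeR). Both were called without the filter on low counts, at -1.89 and 3.03. GCG gave 0.77 ± 0.72, CHGA -0.06 ± 0.44, CHGB 0.16 ± 0.68, NEUROD1 -1.59 ± 1.73 and CCK 0.88 ± 1.65.

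Genes whose pattern was most like each of the 7 were sought across the 2644 endocrine and other epithelial barcodes, as the Pearson correlation of log-normalized values over 10880 genes. These correlations describe barcodes that share libraries and differ in depth, and carry no p. CHGA was most like PCSK1 (r = 0.90), CHGB (0.80) and SCG2 (0.79), and CHGB was most like PCSK1 (0.88) and KRT7 (0.85). NEUROD1 was most like SCG2 (0.77), CHGB (0.69) and LMX1A (0.68). GCG was most like PYY (0.71) and PAPPA2, a metalloproteinase that cleaves binding proteins of insulin-like growth factors (0.68). SST had no gene above 0.46, the value for RGS4, a regulator of G protein signaling, and for KLB, a co-receptor of fibroblast growth factors. NTS was most like PYY (0.39) and CCK most like PAPPA2 (0.40). Among the 7, GCG and NTS had a correlation of 0.28, GCG and CCK of 0.35 and SST and NTS of -0.03.

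Blood held few of the transcripts. In the PBMC libraries of pigs 1 and 2, GCG had 34 and 43 UMIs, CHGA 5 and 2, NTS 64 and 96 and SST 28 and 40, with NEUROD1 at 0 in both. Of these, 20 and 33 GCG UMIs and all CHGA UMIs lay at the barcodes of the ileal endocrine cells and of the hormone-rich barcodes outside the rule. So did 10 and 13 of the SST UMIs and 16 and 14 of the NTS UMIs. Those barcodes held 0.00206% and 0.0138% of all UMIs of the PBMC libraries. PYY differed from the 7 genes, with 348 and 749 UMIs in kept PBMC cells and up to 63 in 1 cell.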

How the data were processed

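Droplet-based single-cell RNA-seq was analysed for 6 ileal and 2 PBMC libraries, each listed in the labels as 4 sequencing runs that were taken as 1 library. The values deposited by the authors were raw UMI counts per gene and barcode, in matrices of 25880 genes and 737280 barcodes that predate the authors' ambient RNA removal (SoupX) and their removal of poor cells and doublets. The authors aligned reads to Sscrofa11.1 with a modified Ensembl annotation, and the submitters' processing notes name Cell Ranger 4.0.6. The counts of 3′ ends carry no isoform information. Ambient RNA was not subtracted here, so free transcripts stayed in every value. 0 columns of per-sample values were left unused.

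Barcodes with at least 500 UMIs were candidates, split by the study's thresholds of 1250 UMIs, 550 genes and 12.5% mitochondrial UMIs. Doublets were scored in kept cells by Scrublet's method (scanpy 1.11.5, rate 0.07) and removed, above 0.25, only as an alternative. T and B cell barcodes needed 2 UMIs of CD3 or of CD79A, CD79B and MS4A1. Symbols came from the matrices for 17733 genes and from a supplied name table for 977, and 7170 had none.

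Counts were summed per library and class, filtered with filterByExpr, TMM-scaled and tested with edgeR 4.0.16 in R 4.3.3 (adjusted p below 0.05), and with DESeq2 1.42.0 as an alternative. Shares were tested by exact permutation over libraries (scipy 1.17.1) with 95% Clopper-Pearson intervals. The scripts were tested on simulated counts. A limit for 0 used 3 counts. Named genes were the 8 listed genes, the 15 highest and 5 lowest called symbols with 1 sign in every library of at least 5 endocrine cells, and the called genes of written marker lists. The genes and lists were chosen with earlier results of these data known. The labels pair libraries by pig. Deviations from group means correlated at 0.54 between non-PP and PP kept cells (0.66 in failing barcodes), but at -0.08 and -0.01 with whole ileum (0.16 in failing barcodes), where the library labelled pig 1 conflicts with its label.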

Additional observations from a re-analysis of the deposited data

Results flagged for a closer look

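The PBMC libraries entered no comparison, and 5 values in their kept cells lay above the limit of 3 counts. NTS had 37 UMIs in kept cells of PBMC pig 1 and 66 in PBMC pig 2, with at most 2 in 1 cell, or in 0.574% and 0.956% of the cells. SST had 4 and 15 UMIs and CHGB had 7 UMIs in PBMC pig 2, each with at most 1 UMI in a cell. No control sample gives the background for these values, and no PBMC barcode met the endocrine rule.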

How the results depend on the processing

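Of the gene values recomputed under the alternatives, 1158 kept their direction and side of the threshold, 29 lost a call, 11 gained one and 24 changed sign. REG4, STMN1, SPINK4, SOX4, SLC5A1, APOA4, JCHAIN and VIL1 lost their call in some. Where causes are not given by the construction of an alternative, the cause was not tested. The alternatives without endocrine cells, with hormone-rich cells added and with endocrine cells inside the epithelial gate for the shares were chosen after seeing the data.

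Without endocrine cells, the log2 difference between failing and kept barcodes was 1.69 for CHGA, 1.96 for SST and 0.62 for GCG. Leaving out 1 library at a time gave NTS -0.42 to 1.47 in that comparison, and in kept cells of non-PP against PP gave NEUROD1 -0.20 to 2.68, NTS -2.61 to 5.34 and CCK -1.25 to 2.89. For the interaction it gave GCG -2.96 to 1.38, CHGA -1.01 to 0.29, CHGB -0.16 to 5.34 and NEUROD1 -3.003 to 2.53. The interaction was also -0.61 for GCG with DESeq2, and for CHGA 0.0879 with RLE scaling, 0.0655 without the filter on low counts, 0.0804 with doublets removed, 1.26 with failing barcodes of at least 1000 UMIs and 0.52 without endocrine cells. For CHGB it was -0.56 with failing barcodes of at least 1000 UMIs.

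Without the replicate block, by library, 1098 genes were called between failing and kept barcodes and 0 in the interaction (735 at an unadjusted p below 0.05), against 4662 and 12. With the pig number as a replicate block, 1609 were called between non-PP and PP in failing barcodes, against 526, and 2803 in kept cells, against 2334. Between failing and kept barcodes 51.1% of calls were higher, and 68.8% without the block. Without the filter on low counts, calls were 2279 for endocrine cells (main 1021), 522 for the interaction and 1149 for non-PP against PP in failing barcodes. The interaction had 50 calls with DESeq2 and 7 with doublets removed, and non-PP against PP had 92 with failing barcodes of at least 1000 UMIs. Leaving out 1 library gave 158 to 1940 calls for non-PP against PP in kept cells, lowest without PP pig 2, 58 to 195 in failing barcodes, lowest without whole ileum pig 2, and 1 to 104 for the interaction. Doublets were scored in kept cells, so their removal was not run for failing barcodes alone. In the interaction, RLE scaling moved the median of all genes from -0.16 to -0.05.

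The share of endocrine cells in failing minus kept barcodes passed an exact p of 0.0313 with 5 UMIs of CHGA and CHGB (-0.140 percentage points), thinned (-0.0881), among epithelial and endocrine barcodes (-7.17) and inside the epithelial gate (-0.136). It ran from -0.173 to -0.0863 without 1 library, lowest in size without non-PP pig 1.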
